A study of Mus musculus with 15 samples.

Results

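The effect of deleting Srf in mouse oligodendrocytes (OLs) was set against the effect of deleting it in oligodendrocyte precursor cells (OPCs), gene by gene. All 15 libraries of the series entered the comparison. OPCs had 4 control and 3 SRF-KO libraries, and OLs had 4 of each. OPCs were immunopanned from brains of SRF-floxed/floxed mice, so both alleles were floxed in controls and knockouts alike. The OPC cultures received AAV DJ carrying eGFP-Cre under the CMV promoter, or the same vector with a deleted Cre, and were frozen 48 h after infection. The OL cultures received lentivirus with CRE-IRES-GFP, or GFP alone, on day 6 and were frozen on day 3 of differentiation. Cells without floxed alleles that received Cre were not analysed here, so an effect of Cre itself and an effect of Srf loss cannot be told apart. The labels do not say whether libraries came from separate animals or cultures, and p-values therefore measure the spread between these libraries. The treatment tag of the SRF-KO OL libraries names Cre but ends in the word control; their titles were followed.

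SRF (serum response factor) binds a short DNA element called the CArG box. It acts with 2 families of partners: the MRTFs, which are released when actin polymerises and drive actin and other cytoskeletal genes, and the ternary complex factors, which respond to MAP kinase signalling and drive immediate-early genes. OPCs divide, migrate and extend branches; as they differentiate they leave the cell cycle, build an actin-rich leading edge, take the actin down again and wrap axons with myelin. The study's title concerns SRF and the OL cytoskeleton, and the present comparison asks which knockout effects were shared by the stages, which were limited to a stage and which ran in opposite directions.

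The libraries held 4303739 to 16026511 expected counts. Pdgfra, the platelet-derived growth factor receptor of OPCs, had a mean of 518 CPM (counts relative to the TMM-scaled library size) in control OPCs and 55.95 in control OLs. Mbp, myelin basic protein, had 12.6 and 10370. Not every lineage marker followed the labels: Tnr, on the list of OPC genes, had 11.8 and 193. Summed over that list, OPC genes took 7867 to 8226 CPM in control OPCs and 5267 to 6686 in control OLs. Astrocyte transcripts were present in both stages and abundant in control OLs. There the astrocyte list summed to 34064 to 64109 CPM and the myelin list to 26029 to 46932. Gfap, the astrocyte filament protein, averaged 52.2 CPM in control OPCs and 20337 in control OLs, whereas Mog, a late myelin gene, was at 0 in all OPC libraries. SRF-KO OL replicate 4 stood apart on the leading principal component of the OL libraries (86.9 against -20.6 to -1.02 for the others), as did SRF-KO OPC replicate 2 among the OPC libraries (53.2 against -26.9 to 9.24). The counts of the stages were also made differently. Among 8995 genes with a single spliced transcript, the OPC files listed the spliced length in 89.8% and the OL files listed the whole genomic span in 90.0%, so the OL gene models span introns. Stage, virus, culture time and the way genes were counted cannot be told apart. The marker levels above describe the libraries, and no test was made of levels between stages.

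Few genes were called as different in their response to the knockout in the main fit. Of 16135 genes tested with edgeR, 18 had a knockout effect in OLs that differed from the effect in OPCs at an adjusted p under 0.05 (0.112%): 7 with a higher effect in OLs (0.0434%) and 11 with a lower one (0.0682%). At an unadjusted p under 0.05 there were 1493 (9.25%; 4.60% positive and 4.65% negative), and 50.5% of all genes had a positive difference. The stage effects from the same fit gave 31 changed genes in OPCs (0.192%), of which 19 were higher (0.118%) and 12 lower (0.0744%). In OLs it gave 94 (0.583%), of which 26 were higher (0.161%) and 68 lower (0.421%). Unadjusted p-values under 0.05 were found in 9.81% of genes in OPCs (4.51% higher and 5.30% lower) and in 11.4% in OLs (4.88% higher and 6.54% lower), and positive effects in 46.7% and 49.4%. Knockout and control libraries did not overlap in 10.9% of genes in OPCs and in 8.11% in OLs. With 3 knockout libraries in OPCs and 4 in OLs, groups come apart by chance more often in OPCs. These 2 shares are therefore not compared. Across genes the estimated effects of the stages were weakly correlated, and 51.1% had the same sign. Pearson's r was 0.03 over all genes and 0.12 over the 10437 genes with at least 4 CPM in a group of each stage. Noise in the estimates lowers r, so a low r does not show that the underlying effects are unrelated. Genes are not independent replicates, and these values describe the libraries. Of the 31 genes changed in OPCs, 21 had the same sign in OLs, 9 of them with an unadjusted p under 0.05 there. Of the 94 genes changed in OLs, 53 had the same sign in OPCs, 12 of them with an unadjusted p under 0.05. The number of called differences depended on single libraries. It was 4 without SRF-KO OPC replicate 2, 6 on leaving out control OPC replicate 2 or control OL replicate 1, 7 without control OPC replicate 4, 9 without control OL replicate 3, 28 without SRF-KO OL replicate 1, 42 without control OL replicate 4 and 134 without SRF-KO OL replicate 4.

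**Figure D1:**
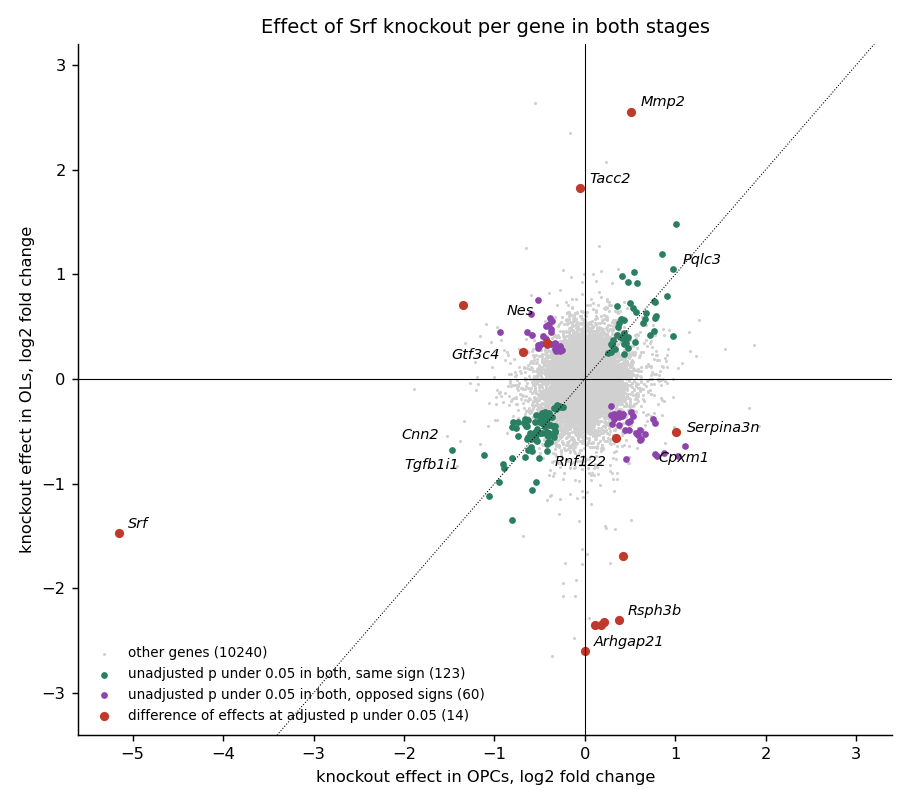
Knockout effect in OPCs (x axis) against knockout effect in OLs (y axis), both as log2 fold change, for the 10437 genes measured in both stages; the dotted line marks equal effects and 1 gene lies outside the axes. Red points are the 14 genes of this set whose effects differed at an adjusted p under 0.05, green points 123 genes with the same sign and purple points 60 genes with opposed signs at an unadjusted p under 0.05 in each stage, and grey points the rest.

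Srf itself fell in both stages and fell further in OPCs. Srf lies at chr17:46548329-46556175 (GRCm38, minus strand). Its promoter carries 2 CArG boxes. Shown with it are Cnn2, Lima1 and Actg1 of the SRF-MRTF target list and Egr2 of the immediate-early list, whose values are given further on. Each window is from RefSeq (GRCm38.p6), runs 5′ to 3′ on the gene's strand and has the box in capitals.
Srf, chr17:46556220-46556259: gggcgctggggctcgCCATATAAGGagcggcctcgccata
Srf, chr17:46556200-46556239: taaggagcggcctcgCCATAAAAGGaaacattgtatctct
Cnn2, chr10:79988529-79988568: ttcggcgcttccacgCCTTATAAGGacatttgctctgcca
Lima1, chr15:99820172-99820211: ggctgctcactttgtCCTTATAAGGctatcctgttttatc
Actg1, chr11:120348561-120348600: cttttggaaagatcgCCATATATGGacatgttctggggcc
Egr2, chr10:67537782-67537821: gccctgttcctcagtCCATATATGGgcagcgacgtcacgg
The boxes of Srf begin 82 and 62 bases before the annotated start, those of Cnn2, Lima1, Actg1 and Egr2 56, 47, 90 and 72 bases before. Srf, Lima1 and Actg1 are read from the minus strand. The search was for the CArG box by its usual consensus, which reads alike on both strands, in the 250 bases before and 50 after each start. It was found in 488 of 27025 genes with a promoter entry (1.81%), in 9 of 30 matched SRF-MRTF targets (30.0%) and in 3 of 26 matched immediate-early genes (11.5%). A match describes the letters and is not evidence of binding. The printed genes had lower values in SRF-KO OPCs, but not every listed target with a box did: Fhl1 had log2 effects of 0.01 in OPCs and -0.03 in OLs. Egr2 has a further box at another start that is not printed.

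Srf was at 7.34, 5.16, 8.93 and 7.58 CPM in control OPCs and at 0.199, 0.186 and 0.193 in SRF-KO OPCs. In OLs it was at 8.54, 9.40, 10.2 and 7.90 CPM in controls and 3.31, 2.91, 2.16 and 4.56 in knockouts. The groups did not overlap in either stage. In pooled counts, 7 remained in SRF-KO OPCs against 379 in controls, which is 2.73% of the control level (95% interval 1.09 to 5.68, counting error only); in OLs 103 remained against 348, which is 36.3% (28.8 to 45.3). The log2 effect was -5.15 ± 0.37 (SE) in OPCs (adjusted p 7.96e-07) and -1.47 ± 0.23 in OLs (adjusted p 0.00342). The difference was 3.68 ± 0.46 (adjusted p 0.00465). The residual Srf level was thus not equal in the stages. In bulk RNA, fewer cells that lost Srf and a smaller loss per cell cannot be told apart. Which exon is floxed is not given in the sources used here. The listed length of Srf was 4093 bases in OPC files and 9324 in OL files; the part of intronic reads in the residual OL counts was not tested. Srf and the ciliary gene Rsph3b were the genes among the 11 named by rule for a called difference whose difference was called in each of the 15 fits that left out 1 library.

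Among genes with a larger effect in OLs, Mmp2 and Tacc2 rose in OLs. Mmp2 encodes a secreted gelatinase that cleaves matrix (chr8:92827291-92853420). It was at 13.5, 16.8, 15.7 and 19.7 CPM in control OPCs and 24.7, 22.3 and 23.3 in SRF-KO OPCs. OL levels were 2.51, 2.07, 1.34 and 1.24 CPM in controls and 13.2, 10.5, 11 and 7.13 in knockouts. Every knockout library lay above every control library of its stage. The log2 effect was 0.51 ± 0.20 in OPCs (adjusted p 0.389) and 2.55 ± 0.24 in OLs (7.08e-05), a difference of 2.04 ± 0.32 (adjusted p 0.0135; 0.0803 without SRF-KO OPC replicate 2). Tacc2, a protein of the centrosome and microtubule plus ends (chr7:130577438-130764785), was at 127 to 138 CPM in control OPCs and at 135, 119 and 127 in SRF-KO OPCs, which overlapped. Among the OLs it stood at 2.81, 2.91, 1.00 and 4.34 CPM in controls and 11.1, 7.80, 13.0 and 10.7 in knockouts, with no overlap. The log2 difference was 1.88 ± 0.31 (adjusted p 0.0202; 0.0544 to 0.0938 on leaving out control OPC replicate 2 or 4, replicate 2 of the SRF-KO OPCs, or control OL replicate 1).

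Gtf3c4, a subunit of the TFIIIC factor for RNA polymerase III (chr2:28822299-28840360), fell in OPCs and had a small positive value in OLs. Its control OPC libraries were at 63.9, 61.8, 63.6 and 62.3 CPM and its SRF-KO OPC libraries at 35.7, 40.8 and 41.0. Control OLs were at 21.5, 22.0, 18.7 and 20 CPM and SRF-KO OLs at 28.3, 22.3, 23.8 and 23.8. The groups were apart in both stages, on opposite sides. The log2 effect was -0.68 ± 0.11 in OPCs (adjusted p 0.0207) and 0.26 ± 0.11 in OLs (adjusted p 0.38). The difference, 0.94 ± 0.16, had an adjusted p of 0.0204, and of 0.0555 to 0.0811 on leaving out control OPC replicate 2 or 4, replicate 1 or 2 of the SRF-KO OPCs, or control OL replicate 1 or 3.

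A set of 5 genes named by the rule fell in OLs and showed no called effect in OPCs. Arhgap21 encodes a GTPase-activating protein (chr2:20847919-20968881). It was at 59.9, 46.7, 55.9 and 56.5 CPM in control OPCs and 49.4, 59.0 and 55.4 in SRF-KO OPCs. Its OL levels were 3440, 2080, 3650 and 1310 CPM in controls and 718, 444, 234 and 327 in knockouts. The OPC groups overlapped and the OL groups did not. Its log2 effect was -0.00 in OPCs (95% interval -0.70 to 0.69) and -2.60 ± 0.32 in OLs (adjusted p 0.000511), a difference of -2.60 ± 0.45 (adjusted p 0.0204).

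The other members of the set were Rsph3b, Mphosph8, Camk1d and Jarid2. Rsph3b, a radial spoke protein of cilia (chr17:6904413-6948682), had a log2 effect of 0.37 in OPCs (interval -0.23 to 0.98) and -2.31 ± 0.27 in OLs, a difference of -2.68 ± 0.39 (adjusted p 0.00815). Every SRF-KO OPC library of Rsph3b lay above every control OPC library (means of 32.8 and 25.3 CPM). The OPC groups of Mphosph8, Camk1d and Jarid2 overlapped. Mphosph8, a chromatin protein of the HUSH silencing complex, had a difference of -2.11 ± 0.35, with an interval of -0.12 to 0.97 for the OPC effect. Camk1d, a calcium/calmodulin-dependent kinase, had -2.53 ± 0.44 (OPC interval -0.52 to 0.88), and Jarid2, a partner of Polycomb repressive complex 2, had -2.54 ± 0.44 (OPC interval -0.47 to 0.90). In these 5 genes control OL replicate 4 was the lowest control library and SRF-KO OL replicate 1 the highest knockout library, and the OL groups did not overlap. The listed length in OL files was 2.10 times that in OPC files for Mphosph8, 6.15 times for Arhgap21, 26.6 times for Jarid2, 27.0 times for Rsph3b and 55.5 times for Camk1d. Whether the falls are in spliced or in intronic RNA was not tested. Genes whose OL length was at most 1.5 times the OPC length were also fitted on their own, and 3 of 2820 differences were called. With all genes fitted, 2 of the 2820 were called (0.0709%), against 0.112% of all genes tested. These 2 were the processed pseudogenes Gm13237 and Gm10157. No gene named by rule for a called difference was within the length limit, so this fit does not bear on those genes. Without SRF-KO OPC replicate 2 the adjusted p was 0.0985 for Arhgap21 and Mphosph8, 0.12 for Camk1d and 0.116 for Jarid2. It was also over 0.05 for these 4 genes without control OPC replicate 2 or 4 or control OL replicate 1 or 3 (0.0544 to 0.0704), for Arhgap21 without SRF-KO OPC replicate 1 (0.0502) or 3 (0.0554), for Camk1d without SRF-KO OPC replicate 3 (0.0554), and for Jarid2 without SRF-KO OPC replicate 1 (0.0528).

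Serpina3n and Rnf122 had higher values in SRF-KO OPCs and lower values in SRF-KO OLs. Serpina3n encodes a secreted serine protease inhibitor known as a marker of reactive glia (chr12:104406729-104414329). It was at 4.5, 4.75, 5.07 and 2.5 CPM in control OPCs and 7.65, 9.22 and 8.48 in SRF-KO OPCs. OL levels were 1580, 1680, 1480 and 1260 CPM in controls and 884, 1050, 1100 and 1190 in knockouts. The groups were apart in both stages. Its log2 effects were 1.01 ± 0.20 in OPCs (adjusted p 0.0507) and -0.51 ± 0.16 in OLs (adjusted p 0.18), and their difference was -1.52 ± 0.26 (adjusted p 0.0204; 0.0502 to 0.111 on leaving out control OPC replicate 2, replicate 2 or 3 of the SRF-KO OPCs, or control OL replicate 1, 2 or 3). Rnf122, a ubiquitin ligase of the RING type (chr8:31111820-31131482), was at 28.3, 32.5, 36.6 and 33.1 CPM in control OPCs against 42.6, 43.7 and 38.2 in SRF-KO OPCs. In OLs it fell, from 124, 121, 121 and 135 CPM to 81.3, 93.1, 82.0 and 83.4, with a log2 effect of -0.56 ± 0.11 (adjusted p 0.0173). The difference for Rnf122 was -0.91 ± 0.16 (adjusted p 0.0204). It lost the call in 8 of the fits that left out 1 library (adjusted p 0.0513 to 0.0985) and under scaling by library totals (0.165).

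**Figure D2:**
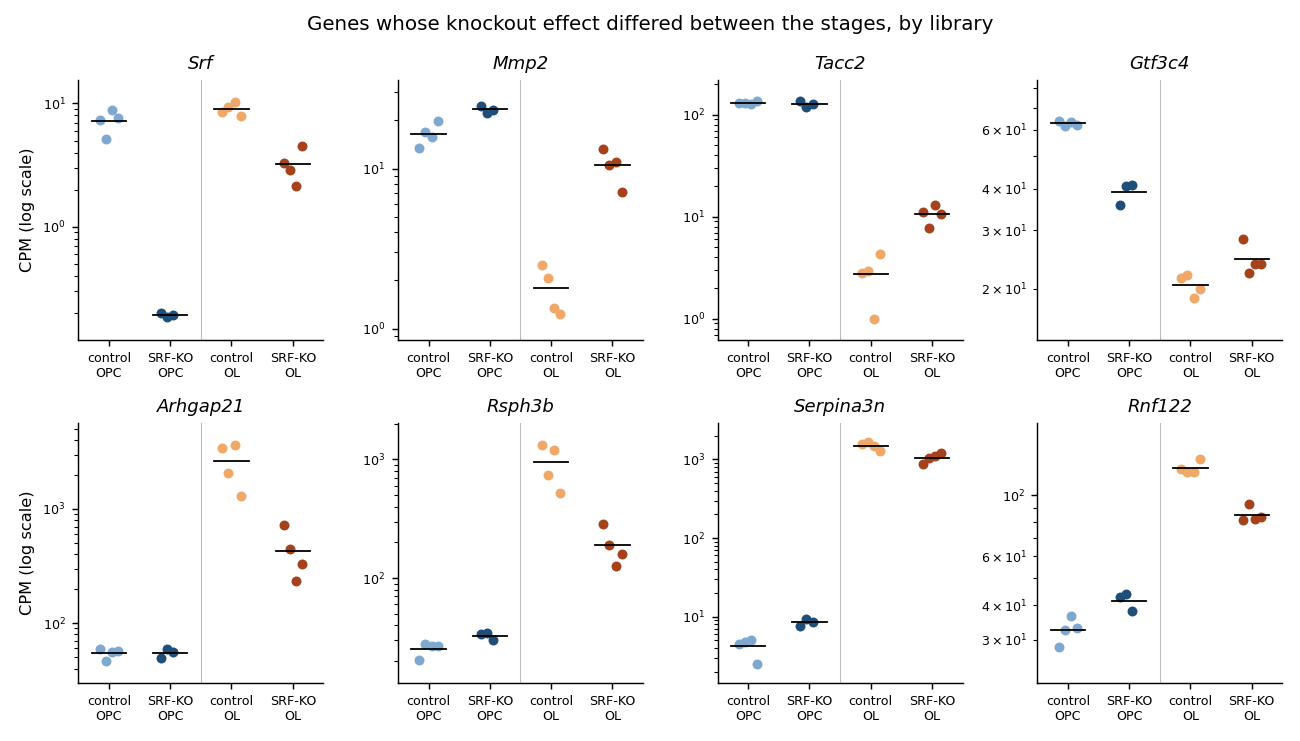
CPM on a log axis in each library for Srf and 7 genes whose knockout effects differed between stages; points are libraries and bars group means. Mmp2 and Tacc2 separate by genotype most widely in OLs, Gtf3c4 in OPCs, and Arhgap21 and Rsph3b in OLs, where control OL replicate 4 lies lowest among controls.

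The remaining 6 called differences were in genes of low count or without a proper name, named here after their values were seen. Cds1, an enzyme of phosphatidylinositol synthesis, had 14 to 24 counts in each control OPC library and 0 in each SRF-KO OPC library, at least 16.7-fold lower against a limit of 3 counts over the group. In OLs Cds1 had 9 to 15 counts in controls and 6 to 20 in knockouts, which overlapped. Gm26899, Spag6l and Gm10157 ran the other way in OPCs: each had 0 counts in every control library and 4 to 9 in each SRF-KO library, at least 11.8-fold, 10.8-fold and 9.86-fold higher against the same limit. Gm13237 had log2 effects of -1.34 in OPCs (adjusted p 0.034) and 0.71 in OLs (0.0876), and 4930453N24Rik -0.42 and 0.34. By the rule that the difference and the effect of a stage were both called and the other stage had an unadjusted p over 0.05, 7 genes were limited to OLs (0.0434% of genes tested), among them Tacc2 and the 5 named above that fell, and 3 to OPCs (Cds1, Gm26899 and Spag6l; 0.0186%). For the 5 genes that fell, the intervals given above show how large an effect OPCs could still hold. The OPC interval of Tacc2 was -0.46 to 0.35. The OL intervals were -0.22 to 1.45 for Cds1, -0.16 to 0.57 for Gm26899 and -0.34 to 0.58 for Spag6l.

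No gene was called as shared by both stages when the larger of its 2 stage p-values was adjusted over all genes, and none as opposite. Srf came nearest, at an adjusted p of 0.103, followed by Pqlc3 at 0.145. By DESeq2 this test called Srf and Pqlc3 as shared and 1 predicted gene, Gm12671, as opposite. At an unadjusted p under 0.05 in each stage, 233 genes remained (1.44%). Of these 159 had the same sign (0.985%; 65 higher in both, 0.403%, and 94 lower in both, 0.583%), and 74 had opposed signs (0.459%; 36 lower in OPCs and higher in OLs, 0.223%, and 38 the reverse, 0.236%). Values for the genes at the head of each set follow as descriptions.

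Pqlc3, a membrane protein of the PQ-loop family also called Slc66a3 (chr12:16988648-17000408), was higher in both stages by nearly the same amount, and was called in each stage on its own. It was at 8.04, 11, 11 and 10.6 CPM in control OPCs and 15.3, 21.3 and 23.2 in SRF-KO OPCs. Among the OLs it stood at 9.64, 9.30, 8.2 and 10.2 CPM in controls and 18.8, 21, 21 and 16.8 in knockouts. The groups did not overlap. The log2 effect was 0.98 ± 0.17 in OPCs (adjusted p 0.0207) and 1.05 ± 0.16 in OLs (0.00312). The difference was 0.07, with an interval of -0.42 to 0.57. Ckmt1, the mitochondrial creatine kinase, was also called in each stage on its own (0.73 and 1.30) and was named after its values were seen; it was under 3 CPM in every OL library.

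Dcxr, Btg2 and Ak1, all on the list of p53 targets, were also higher in both stages. Dcxr, a carbonyl reductase (chr11:120725399-120727281), was at 34.9, 33.3, 29.5 and 27.6 CPM in control OPCs and 50.1, 59.8 and 49.6 in SRF-KO OPCs. Its OL levels were 8.84, 10.1, 9.71 and 8.91 CPM in controls and 13.1, 12.1, 16.4 and 22.6 in knockouts. Both log2 effects were close to 0.75 (0.76 and 0.75; interval of the difference -0.54 to 0.51). Btg2, an antiproliferative p53 target, had 0.44 and 0.57, and Ak1, adenylate kinase, had 0.40 and 0.57 (adjusted p 0.0367 in OLs). Prrg4, a membrane protein with a Gla domain, had 1.01 in OPCs and 1.48 in OLs (adjusted p 0.00703), and Gdpd2, a glycerophosphodiester phosphodiesterase, had 0.77 and 0.46.

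Cnn2 and Tgfb1i1, both on the list of SRF-MRTF targets, were among the genes lower in both stages. Cnn2 encodes calponin 2, an actin-binding protein whose CArG box is printed above (chr10:79988584-79996062). It was at 11.9, 8.61, 7.51 and 9.30 CPM in control OPCs and 4.37, 2.66 and 3.28 in SRF-KO OPCs. Control OLs had 46.1, 50, 39.8 and 36.8 CPM and SRF-KO OLs 21.7, 24.9, 28.6 and 33.9. The groups did not overlap in either stage. The log2 effect was -1.47 ± 0.22 in OPCs (adjusted p 0.011) and -0.68 ± 0.17 in OLs (adjusted p 0.0892), with an interval of 0.20 to 1.39 for the difference and an adjusted p of 0.367. Tgfb1i1 encodes HIC-5, a focal adhesion adaptor (chr7:128246812-128255699). It was at 12.3, 13.4, 18.5 and 13.9 CPM in control OPCs and 5.16, 6.80 and 8.00 in SRF-KO OPCs, an effect of -1.11 ± 0.22 (adjusted p 0.0433). In OLs it was at 10.7, 16.2, 16.1 and 12.3 CPM in controls and 6.62, 8.06, 9.52 and 9.71 in knockouts, an effect of -0.72 ± 0.20 (adjusted p 0.122). Rhoj, a Cdc42-like GTPase, had -0.63 and -0.56, and Hnrnpl, a splicing regulator, -0.54 and -0.58. A CArG box was also found in the promoter window of Rhoj.

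**Figure D3:**
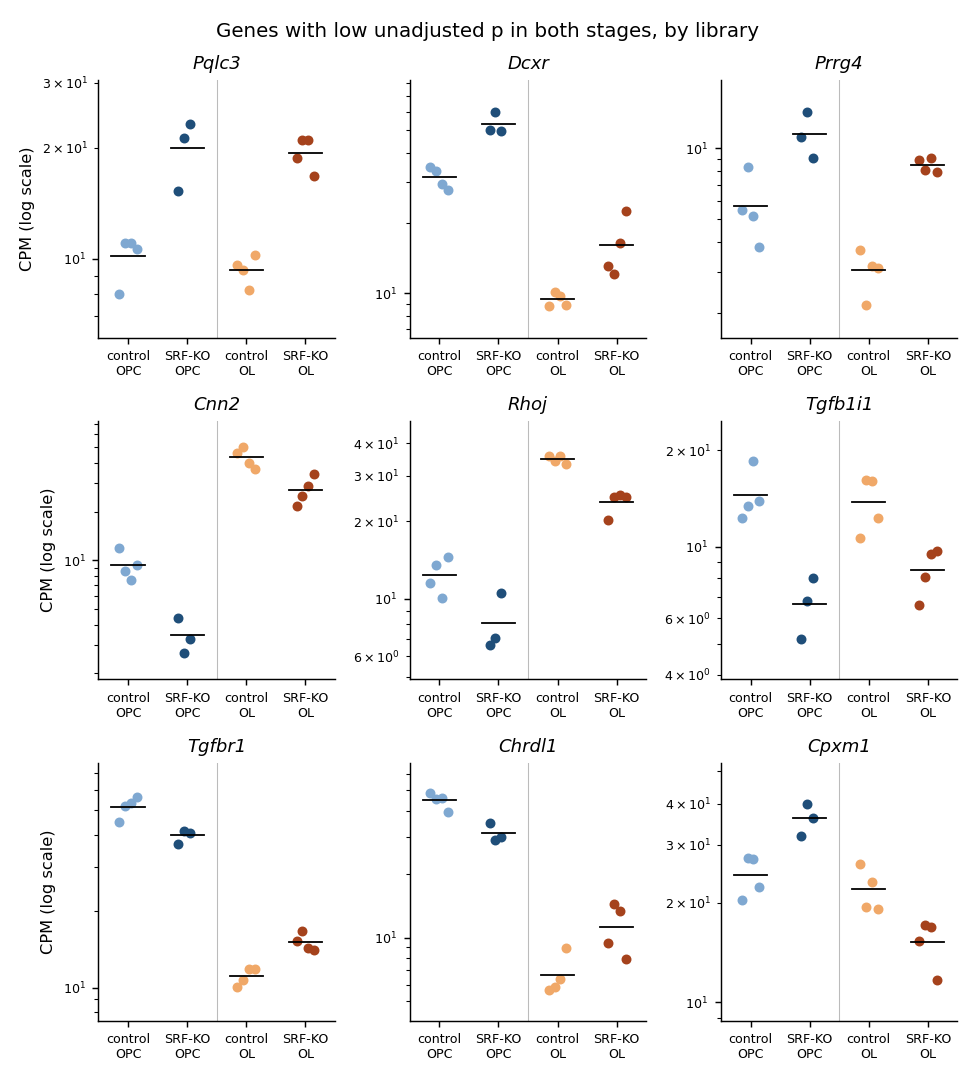
CPM on a log axis in each library for genes with an unadjusted p under 0.05 in each stage; points are libraries and bars group means. Pqlc3, Dcxr and Prrg4 lie higher and Cnn2, Rhoj and Tgfb1i1 lower in the knockouts of both stages, while Tgfbr1, Chrdl1 and Cpxm1 lie on opposite sides.

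Among the 8 genes named for opposed values in the stages, Serpina3n, described above, passed the test of the difference and the others did not. Tgfbr1, the type I TGF-beta receptor (chr4:47353222-47414931), was at 44.9, 51.8, 53.2 and 56.5 CPM in control OPCs and 36.9, 41.6 and 40.8 in SRF-KO OPCs. OL levels were 10.1, 10.7, 11.9 and 11.9 CPM in controls and 15.3, 16.8, 14.3 and 14.1 in knockouts. The groups lay apart on opposite sides, with log2 effects of -0.37 and 0.45 and a difference of 0.82 (adjusted p 0.0658). Chrdl1, a secreted BMP antagonist, had -0.52 and 0.75 (difference 1.27, adjusted p 0.0658). Yars2, the mitochondrial tyrosyl-tRNA synthetase, had -0.49 and 0.33 (0.82, adjusted p 0.0604), and Nes, the progenitor filament protein nestin, -0.43 and 0.50 (0.93, adjusted p 0.0924).

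Cpxm1, a secreted carboxypeptidase-like protein, ran the other way (chr2:130390775-130397574). It was at 20.4, 27.4, 27.2 and 22.4 CPM in control OPCs and 31.9, 40.0 and 36.2 in SRF-KO OPCs. Among the OLs it stood at 26.2, 19.4, 23.1 and 19.2 CPM in controls and 15.3, 17.1, 16.9 and 11.7 in knockouts. Its difference was -1.08 (adjusted p 0.0658) and its groups did not overlap in either stage. Pdcd4, a translation inhibitor, had 0.49 in OPCs and -0.49 in OLs (difference -0.98, adjusted p 0.0791), and Gfra2, a receptor of neurturin, 0.59 and -0.54 (-1.12, adjusted p 0.0924).

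The groups of genes below were examined as lists, by counts and medians beside all genes tested. The lists were chosen with earlier results of these data known, so their counts are descriptions and not independent support. Of all 16135 genes tested, 7543 were higher and 8112 lower in OPCs, and 7977 and 8092 in OLs. At an unadjusted p under 0.05, 4.51% were higher and 5.3% lower in OPCs, and 4.88% and 6.54% in OLs. Over all genes the median effect was -0.00 in OPCs, -0.00 in OLs and 0.00 for the difference. Members called in a stage and not named by rule were picked after their values were seen. The share of all genes with a negative difference at an unadjusted p under 0.05 was near that with a positive one (751 and 742 genes).

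Classical SRF-MRTF targets, which are mostly actins and actin-binding proteins, had about the same median effect in both stages. Of 33 tested members of 35, 25 were lower in OPCs and 27 in OLs, with medians of -0.25 and -0.24 on the log2 scale. The median difference was 0.01, with 17 members positive, 16 negative and none called. In OPCs Cnn2 and Tgfb1i1 were called; in OLs Actb, the cytoplasmic beta-actin, and Cfl1, the actin-severing protein cofilin 1, were called. Actb fell in OLs from 10400, 9300, 8550 and 5460 CPM to 3750, 3820, 2550 and 5040 (log2 -1.15 ± 0.20, adjusted p 0.00836), without overlap. In OPCs Actb was at 3370 to 3920 CPM in controls and 2360 to 2910 in knockouts (-0.42, adjusted p 0.555). The difference for Actb had an adjusted p of 0.442, so its fall in OLs was not shown to differ from the OPC value. Cfl1 had -0.06 in OPCs and -0.79 in OLs (adjusted p 0.0499; difference -0.73, adjusted p 0.355). Actg1, cytoplasmic gamma-actin, had -0.22 and -0.44, and Lima1, the actin cross-linker EPLIN, -0.66 and -0.38. Tagln2, an actin-bundling transgelin, had the smallest p for the difference within the list: -0.31 and 0.35, difference 0.66 (adjusted p 0.313). In each library the median of the list against its stage controls was -0.0756 to 0.118 in controls, -0.197 to -0.164 in SRF-KO OPCs and -0.289 to -0.200 in SRF-KO OLs. Under scaling by library totals the OL median of all genes moved to 0.24 and that of this list to 0.00, so the list stayed below all genes by a like amount.

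Immediate-early genes, the early transcription factors induced by growth signals, were lower in OPCs and not in OLs. Of 29 tested members of 32, 21 were lower in OPCs (median -0.14) and 20 were higher in OLs (median 0.13; 15 and 0.0061 without SRF-KO OL replicate 1). The median difference was 0.40, with 22 members positive, 7 of them at an unadjusted p under 0.05, and none called. Egr2, a zinc finger factor with a CArG box printed above, was at 9.70, 15.1, 13.1 and 16.6 CPM in control OPCs and 4.97, 5.01 and 2.79 in SRF-KO OPCs (-1.67 ± 0.28, adjusted p 0.0207). In OLs Egr2 was under 1.2 CPM in every library (0.47; difference 2.13, adjusted p 0.12). Arc, an activity-induced cytoskeletal protein, fell by 1.34 in OPCs on the log2 scale (adjusted p 0.0324) and had -0.41 in OLs (difference 0.93, adjusted p 0.371). Jund, of the AP-1 family, had nearly equal values, -0.91 and -0.81. Fosl2, another AP-1 member, had -0.36 and 0.48. Among SRF cofactors, 5 of 7 tested members were lower in each stage; Elk4, a ternary complex factor, had -0.38 and 0.12.

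Other cytoskeletal lists showed small medians. The Arp2/3 complex, which nucleates branched actin, had 17 of 19 members lower in OPCs (median -0.11) and 9 of 19 lower in OLs (0.03). The OL median was -0.0761 to 0.0514 on leaving out 1 SRF-KO OL library, with -0.0248 and 11 of 19 lower without replicate 4. Arpc1b, a subunit of the complex, had 0.01 and -0.43. Actin turnover proteins and formins had medians of -0.02 and -0.11, with 8 of 35 lower at an unadjusted p under 0.05 in OLs and none in OPCs. Focal adhesion and integrin genes had -0.11 in both, and Itgb8, an integrin that activates latent TGF-beta, had -0.11 and 0.51. For tubulins and microtubule proteins the medians were -0.03 and -0.07, and -0.15 in OLs without SRF-KO OL replicate 4. Tubb4a, the beta-tubulin isotype of OLs, was at 94.3 to 106 CPM in control OPCs and 101 to 105 in SRF-KO OPCs. In OLs Tubb4a fell from 5230, 3380, 2800 and 2340 CPM to 1750, 1880, 1680 and 1710 (-0.97 ± 0.18, adjusted p 0.0158; difference -1.04, adjusted p 0.163). YAP-TEAD targets had medians of 0.13 and 0.06, and Axl, a receptor kinase on that list, 0.13 and -0.37.

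Lists of OL lineage genes had medians below 0 in SRF-KO OLs and near 0 in SRF-KO OPCs. Of 22 tested genes of newly formed OLs, 19 had at least 4 CPM in a group of each stage. Of 22 tested genes of newly formed OLs, 19 were lower in OLs, 12 of them at an unadjusted p under 0.05; the median was -0.42 in OLs, 0.03 in OPCs and -0.35 for the difference. Frmd4a, a scaffold protein of cell polarity, was at 26.2 to 31.9 CPM in control OPCs and 31.3 to 32.5 in SRF-KO OPCs. In OLs Frmd4a fell from 153, 141, 149 and 171 CPM to 95.7, 102, 103 and 100 (-0.61 ± 0.10, adjusted p 0.00607), and its difference of -0.76 ± 0.15 had an adjusted p of 0.0604. Bcas1, a marker of early myelinating OLs, fell in OLs (-0.85) and had 0.10 in OPCs; Tcf7l2, the Wnt effector of differentiating OLs, fell in OLs (-0.61) and had 0.03. Both had an adjusted p of 0.00733 in OLs and none below 0.05 for the difference (0.0924 and 0.114).

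Myelin genes had the same pattern in their medians, but only 18 of 31 tested members had at least 4 CPM in a group of each stage. Of 33 members, 6 to 10 were at 0 in each control OPC library and 4 to 8 in each SRF-KO OPC library. An OPC median near 0 therefore does not show that these genes were unaffected in OPCs. Of 31 tested members of 33, 25 were lower in OLs (median -0.32), 13 of them at an unadjusted p under 0.05 and 3 called; the OPC median was 0.03 and the median difference -0.42. Sirt2, a tubulin deacetylase abundant in myelin, was at 117 to 122 CPM in control OPCs and 136, 174 and 136 in SRF-KO OPCs. In OLs it fell from 2380, 1650, 1380 and 1100 CPM to 786, 870, 801 and 898 (-0.96 ± 0.18, adjusted p 0.0146). The difference for Sirt2 was -1.26 (adjusted p 0.0658). Cnp, the myelin phosphodiesterase, fell in OLs (-0.91, adjusted p 0.022) and had 0.15 in OPCs; Nkx6-2, an OL homeobox factor, fell in OLs (-0.73, adjusted p 0.0146) and was under 1 CPM on average in OPCs. Mbp had -0.72 in OLs (adjusted p 0.089). Summed over the list, myelin genes took 26029 to 46932 CPM among OL controls and 17170 to 24757 among their knockouts, and 956 to 1005 and 1009 to 1121 among the corresponding OPC libraries. Under scaling by library totals the OL medians were -0.17 for newly formed OL genes and -0.07 for myelin genes, against 0.24 for all genes. Genes of OPCs had medians of -0.12 in OPCs and -0.10 in OLs; Tnr, the matrix protein tenascin-R, had 0.26 and -0.43.

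Cell cycle genes lay on opposite sides in the stages. All 50 members were tested: 43 were lower in OPCs (median -0.09, 1 of them at an unadjusted p under 0.05) and 42 were higher in OLs (median 0.21, 15 at an unadjusted p under 0.05). The difference was positive in 46 members (median 0.30, 12 at an unadjusted p under 0.05) and called in none. Kif23, a kinesin of the midbody, was at 59.6 to 72.7 CPM in control OPCs and 53.9 to 61.3 in SRF-KO OPCs. Its OL levels were 4.62, 4.23, 4.02 and 4.96 CPM in controls and 7.08, 6.77, 7.57 and 4.56 in knockouts, where replicate 4 fell among the controls. The log2 values of Kif23 were -0.16 and 0.54 (difference 0.71, adjusted p 0.24). In the per-library medians of the list, 3 SRF-KO OL libraries were at 0.197 to 0.289 and replicate 4 was at -0.064. Among SRF-KO OPCs, replicates 1 and 3 were at -0.154 and -0.142, and replicate 2 was at 0.0106, within the controls.

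p53 targets, which respond to DNA damage and other stress, had median effects above 0 in both stages. Of 39 members, 30 were higher in OPCs (median 0.23, and 0.15 without SRF-KO OPC replicate 2; 11 at an unadjusted p under 0.05) and 30 in OLs (median 0.41, 20 at an unadjusted p under 0.05); 29 had the same sign. The median difference was 0.12. In the per-library medians SRF-KO OL replicate 4 (0.0671) lay within the OL controls (-0.0703 to 0.0723), and without it the OL median effect was 0.32. Summed over the list, OL controls had 1899 to 2419 CPM and their knockouts 1997 to 2394, which overlapped. OPC controls had 4461 to 4700 CPM and their knockouts 5254 to 5828. Fas, the death receptor, rose in OPCs (0.97, adjusted p 0.0456) and had 0.41 in OLs. Eda2r, the ectodysplasin A2 receptor, rose in OLs (0.99, adjusted p 0.00866) and had 0.41 in OPCs, and Trp53inp1 rose in OLs (0.66, adjusted p 0.0316) and had 0.12 in OPCs. Cdkn1a, the cell cycle inhibitor p21, had 0.56 and 0.64. Sulf2, a heparan sulfate sulfatase, ran against the list in OLs with 0.10 and -0.34. Controls without floxed alleles that received Cre were not analysed here, so the part of Cre or of the viruses in the p53 values was not tested.

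**Figure D4:**
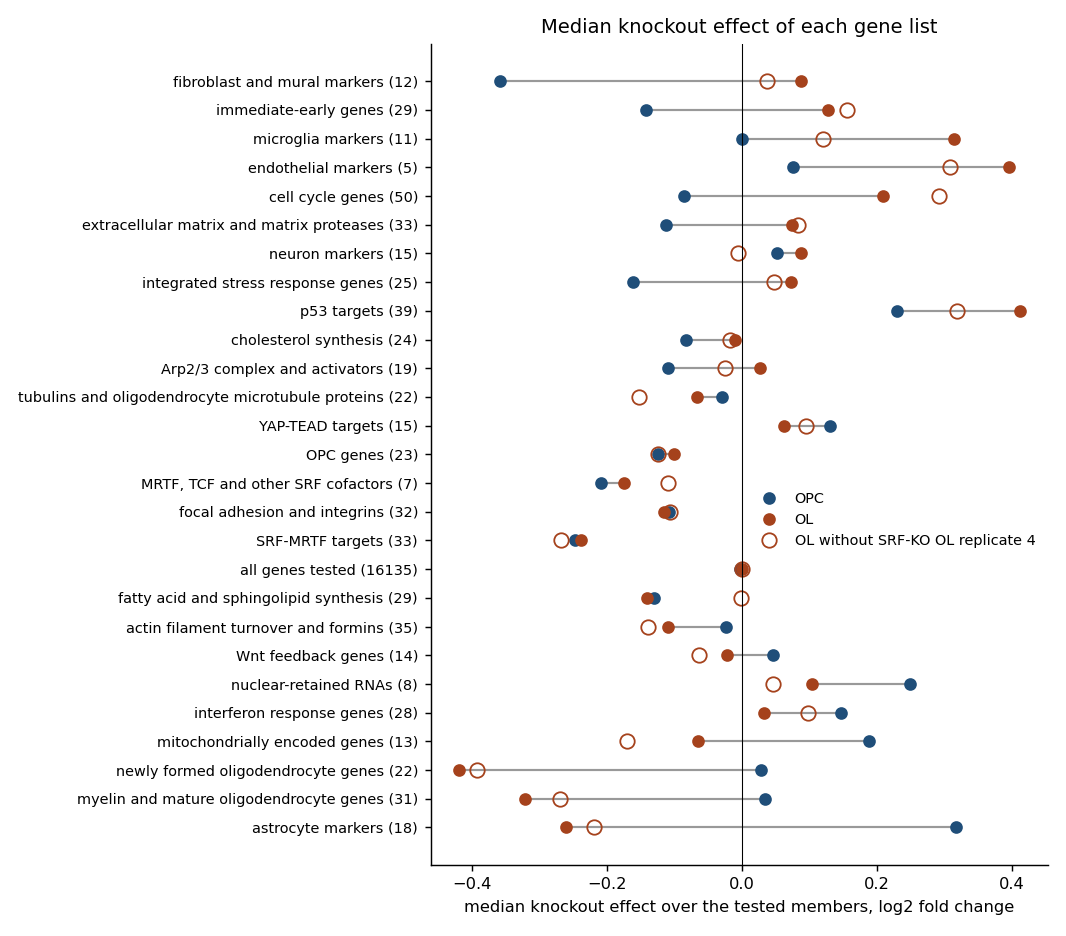
Median log2 knockout effect of each gene list in OPCs (blue), in OLs (brown) and in OLs without SRF-KO OL replicate 4 (open), with the number of genes tested in brackets. SRF-MRTF targets lie left of 0 and p53 targets right of 0 in both stages, and newly formed OL, myelin and astrocyte lists are negative in OLs but not in OPCs.

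Markers of astrocytes were lower in SRF-KO OLs as well. Of 18 tested astrocyte markers, 13 were higher in OPCs (median 0.32, 5 at an unadjusted p under 0.05) and 17 were lower in OLs (median -0.26, 7 at an unadjusted p under 0.05). The median difference was -0.63, with 16 members negative and 10 of them at an unadjusted p under 0.05. Summed over the list, OPC controls had 2680 to 2872 CPM and their knockouts 3079 to 3648, and OL controls had 34064 to 64109 CPM and their knockouts 23153 to 29329. The gap-junction gene Gjb6 was at 0 in OPCs. Gfap was at 60.8, 71.0, 40.7 and 36.3 CPM in control OPCs and 71.3, 81.5 and 71.1 in SRF-KO OPCs. In OLs Gfap fell from 30500, 18300, 19000 and 13600 CPM to 9500, 9640, 7830 and 5020 (-1.35 ± 0.26, adjusted p 0.0183), without overlap. The difference for Gfap was -1.86 ± 0.38 (adjusted p 0.0609). Apoe, the lipid carrier and the most abundant marker after Gfap in OLs, had 0.61 and -0.59. The part of astrocyte content in the OL lineage, Serpina3n and other effects was not tested. Control OL replicate 4 was the lowest control for both the astrocyte list (-0.244 against its stage controls) and the myelin list (-0.193). By library totals the OL median of astrocyte markers was -0.00 while that of all genes was 0.24.

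**Figure D5:**
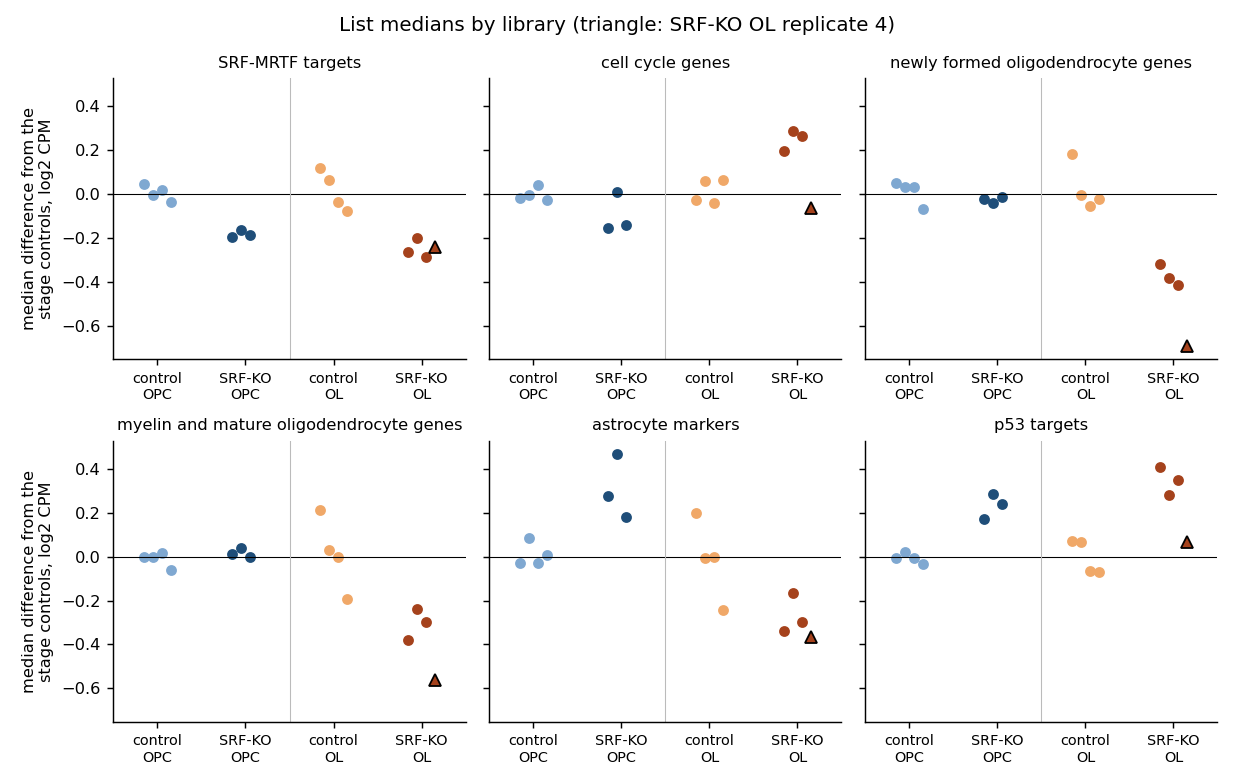
Median log2 CPM of each list's members in each library, as a difference from the mean of the stage's controls; points are libraries and the triangle is SRF-KO OL replicate 4. The triangle lies apart from the other SRF-KO OLs for cell cycle (-0.064) and p53 targets (0.0671), and lowest for newly formed OL (-0.695) and myelin genes (-0.562).

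Summed over their lists, markers of the other cell types were below those of astrocytes in every group. Neuron markers took 618 to 783 CPM in SRF-KO OLs and 849 to 911 in control OPCs. Neuron markers had medians of 0.05 in OPCs and 0.09 in OLs over 15 tested members (-0.0057 in OLs without SRF-KO OL replicate 4); Elavl3, a neuronal RNA-binding protein, had 0.01 and -0.46, and Map2, a microtubule-associated protein, -0.22 and 0.09. Of 18 microglia markers 14 to 16 were at 0 in each OPC library, 8 of 11 tested members had a positive effect in OLs, and endothelial markers summed to at most 21.2 CPM in any library. Fibroblast and mural markers had 12 tested members with medians of -0.36 and 0.09. Cspg4, the NG2 proteoglycan of pericytes that OPCs also express, had -0.43 and 0.31. Mitochondrially encoded genes had medians of 0.19 in OPCs and -0.07 in OLs (-0.17 to 0.0345 without 1 SRF-KO OL library), with -0.07 in OLs for mt-Co1 and -1.02 for mt-Co3 (adjusted p 0.22). Malat1, a nuclear RNA, had 0.45 and -0.58; in OLs it was at 4810, 4670, 4840 and 3180 CPM in controls and 2460, 2160, 2460 and 4600 in knockouts.

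Lists of stress, lipid and signalling genes had medians of -0.16 to 0.15. Interferon response genes had medians of 0.15 in OPCs and 0.03 in OLs (0.0320 in OPCs without SRF-KO OPC replicate 2); Irf9, a component of the interferon-activated complex ISGF3, had 0.82 (adjusted p 0.107) and -0.02. Integrated stress response genes were lower in 21 of 25 members in OPCs (-0.16) and in 10 of 25 in OLs (0.07). Their per-library medians were -0.0237 to 0.0311 in control OPCs and -0.186 to -0.0806 in SRF-KO OPCs, without overlap; Aldh1l2, a mitochondrial folate enzyme, had -0.27 and 0.12. Cholesterol synthesis had -0.08 and -0.01, and Nsdhl, a sterol dehydrogenase, rose in OLs (0.47, adjusted p 0.0386) with -0.03 in OPCs. Fatty acid and sphingolipid synthesis had -0.13 and -0.14, and in OLs -0.0018 without SRF-KO OL replicate 4; Sptlc2, of serine palmitoyltransferase, had -0.03 and 0.21. Matrix genes and proteases had -0.11 and 0.07 with Mmp2 the called member. Wnt feedback genes had 0.05 and -0.02; Rnf43, a ubiquitin ligase for Wnt receptors, had -0.42 and 0.27.

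The comparison was repeated without SRF-KO OL replicate 4. Of 16023 genes tested, 134 differed between stages at an adjusted p under 0.05 (0.836%): 70 positive (0.437%) and 64 negative (0.399%). All 18 genes called with every library remained, and the 116 added genes had the same sign with all libraries, 99 of them with an unadjusted p under 0.05 there. Both fits share every library except SRF-KO OL replicate 4, so this overlap is not separate support. Changed genes numbered 83 in OPCs (0.518%) and 442 in OLs (2.76%; 199 higher, 1.24%, and 243 lower, 1.52%). Genes limited to OLs numbered 49 (0.306%; 24 higher and 25 lower) and genes limited to OPCs 14 (0.0874%; 12 higher and 2 lower). Srf was then called as shared (adjusted p 0.0404) and no gene as opposite by the larger p. Among the 134, 66 had opposed signs with an unadjusted p under 0.05 in each stage: 41 lower in OPCs and higher in OLs, and 25 the reverse. Over all 16023 genes tested, 193 had opposed signs and 255 the same sign at an unadjusted p under 0.05 in each stage. Selection for a large difference favours opposed signs, so the 66 are a description only. Without SRF-KO OPC replicate 2 as well, 58 differences were called.

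Pawr, Igfbp3, Tmpo and Gclc, added in that comparison, lay above all control OLs in 3 knockout libraries and below all of them in SRF-KO OL replicate 4. Pawr, a pro-apoptotic regulator, was at 12.7, 8.85, 9.03 and 11.6 CPM in control OPCs and 6.46, 4.14 and 6.17 in SRF-KO OPCs. In OLs Pawr was at 22.8, 24.8, 26.1 and 26.6 CPM in controls, at 34.8, 41.7 and 40.5 in the knockout replicates 1 to 3, and at 19.6 in the fourth replicate. Without replicate 4 its effects were -0.94 (adjusted p 0.0278) and 0.64 (0.0387), a difference of 1.58 ± 0.24 (adjusted p 0.0076). Igfbp3, an insulin-like growth factor binding protein, was at 107 to 142 CPM in control OLs, 192, 231 and 215 in replicates 1 to 3 and 65.0 in replicate 4. Its difference without replicate 4 was 0.91 ± 0.14 (adjusted p 0.0076).

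Tmpo, a protein of the nuclear lamina, had -0.47 in OPCs and 0.42 in OLs without replicate 4 (difference 0.89, adjusted p 0.0086), and Gclc, the catalytic subunit of glutathione synthesis, had -0.38 and 0.61 (0.99, adjusted p 0.0096). In the negative direction, Mxd4, an antagonist of Myc at the MAX partner, rose in OPCs from 31.9, 32.2, 33.0 and 32.4 CPM to 51.5, 61.9 and 53.4 (0.78) and had -0.10 in OLs (difference -0.88, adjusted p 0.0073). Thra, the thyroid hormone receptor alpha, had 0.19 in OPCs and fell in OLs by 0.92 (difference -1.11, adjusted p 0.0104). Gng3, a G protein gamma subunit, had 0.23 and -1.58 (difference -1.81), and Cadm2, an adhesion molecule, 0.22 and -0.49 (-0.71), both at an adjusted p of 0.0128. Serpina3n then passed the test in each stage, with 1.01 in OPCs (adjusted p 0.025) and -0.57 in OLs (0.0472).

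By lists, the repeat called 4 cell cycle genes with a positive difference (Ccna2, Anln, Ccnb1 and Kif23), and the list's median difference was 0.38 with 47 of 50 members positive. Ccna2, cyclin A2, was at 39.4, 37.7, 31.8 and 38.4 CPM in control OLs, 48.3, 56.1 and 52.8 in replicates 1 to 3 and 15.8 in replicate 4; in OPCs it was at 505 to 550 in controls and 434 to 449 in knockouts. Negative differences were called for 5 newly formed OL genes (Frmd4a, Tcf7l2, Pdcd4, Bcas1 and Tmem108), for Sirt2 among myelin genes and for 4 astrocyte markers (Aqp4, Apoe, Gfap and Atp1b2). SRF-MRTF targets had none called, with medians of -0.25 in OPCs and -0.27 in OLs. p53 targets had 11 members called higher and 1 called lower in OLs (Cd80) and 5 called higher in OPCs, and Ckap2, a spindle protein on that list, was the member with a called difference (0.57, adjusted p 0.0357). Idi1, of cholesterol synthesis, was called with 0.63 and was at 313, 347 and 355 CPM in replicates 1 to 3 against 79.0 in replicate 4 and 231 to 255 in controls.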

How the data were processed

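RNA of cultured OPCs and OLs was sequenced with Smart-seq2 as single reads of 63 bases, without strand, per the labels' protocols. The submitters' processing notes name bcl2fastq, STAR and RSEM (versions not given) and the builds GRCm38 and Rnor_6.0; the gene identifiers are those of mouse. The deposited values used are the authors' expected counts of RSEM per gene, 45706 genes per library. The lengths of another column, also deposited by the authors, served to compare gene models. Symbols and positions are from GENCODE M21 on GRCm38 and were found for 45143 genes.

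Expected counts were rounded to whole numbers. The 15 libraries, grouped by title, were fitted in edgeR 4.0.16 (R 4.3.3; quasi-likelihood F-test) with 1 mean per group, filterByExpr and TMM, giving 16135 tested genes. Contrasts were the knockout effect in OPCs, in OLs, and their difference (OLs minus OPCs), with Benjamini-Hochberg adjustment at 0.05 over all genes. Standard errors are the log2 effect over the root of F. Shared and opposite effects used the larger p of both stages, adjusted over all genes. CPM are TMM-scaled. Per-library list medians used log2 CPM with a prior count of 2. The scripts were tested on simulated data.

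The members and the 26 lists (655 genes, 592 tested) were chosen with earlier results of these data known. The 56 named genes follow a rule: Srf; among genes with a proper name and at least 4 CPM in a group of each stage, the 8 smallest difference p-values in each direction among called genes (filled up to 5); the smallest larger p-values, 6 each for higher or lower in both stages and 4 for each opposed pattern; and from each list the member with the smallest difference p, with the most abundant member for quality and other cell types. Some genes that the rule names are not reported here. The repeat without SRF-KO OL replicate 4 used the same rule for called differences. Alternatives were RLE and library-total scaling, TMM within stages, DESeq2 1.42.0, limma 3.58.1 voom with sample weights, other filters, a limit on gene length, a replicate block and leaving out libraries. Replicates of a group differed beyond sampling noise in 24.7 to 60.7% of genes (5% expected), so none was counted as a duplicate. Totals of 4303739 to 16026511 counts per library set the precision of low genes, and intervals on pooled counts cover counting error only. Mitochondrial genes took 4.65 to 5.73% of counts in OPC libraries and 9.08 to 14.2% in OL libraries.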

Additional observations from a re-analysis of the deposited data

Results flagged for a closer look

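Of the 18 genes with a called difference, 17 are listed with the knockout effect in OLs minus that in OPCs on the log2 scale. Positive values were found for Srf (3.68), Cds1 (7.57), Gm13237 (2.05), Mmp2 (2.04), Tacc2 (1.88), Gtf3c4 (0.94) and 4930453N24Rik (0.76). Negative values were found for Rsph3b (-2.68), Arhgap21 (-2.60), Jarid2 (-2.54), Camk1d (-2.53), Mphosph8 (-2.11), Serpina3n (-1.52), Rnf122 (-0.91), Gm26899 (-5.66), Spag6l (-5.61) and Gm10157 (-6.01). The fitted values of Cds1, Gm26899, Spag6l and Gm10157 rest on an OPC group at 0 counts and depend on the prior count.

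A library stood apart from the rest of its group in 21 of 252 groups of 4 libraries examined by Dixon's criterion, which chance meets in about 1 of 20; SRF-KO OL replicate 4 was the library in 8. On the leading principal component of the OL libraries it was at 86.9 against -17.4 to -8.04 for the other SRF-KO OLs. It was high in Tagln2 (125 CPM against 80.2 to 86.3), Malat1 (4600 against 2160 to 2460) and Elavl3 (118 against 94.5 to 97.8) and low in Axl (23.2 against 49.1 to 53.1). Its list medians were high for tubulins (0.273 against -0.193 to -0.151) and low for interferon genes (-0.136 against 0.0583 to 0.0938) and fatty acid synthesis (-0.513 against -0.0383 to 0.0442).

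Control OPC replicate 1 was high in Yars2 (48.6 CPM against 43.5 to 44.1), Pdcd4 (22.0 against 16.2 to 17.0) and the immediate-early median (0.127 against -0.0354 to -0.00863). It was low in Pqlc3 (8.04 against 10.6 to 11) and Sptlc2 (37.3 against 41.4 to 41.7). Control OPC replicate 4 was high in Btg2 (135 against 121 to 122) and low in the newly formed OL median (-0.0688 against 0.031 to 0.0506). Control OL replicate 1 was high in the OPC gene median (0.0856 against -0.0258 to -0.0124) and low in the Wnt median (-0.12 against 0.0195 to 0.0395). Axl was low in control OL replicate 2 (51.7 against 58.8 to 58.9) and Malat1 in control OL replicate 4 (3180 against 4670 to 4840). SRF-KO OL replicate 1 was low in Rhoj (20.2 against 24.7 to 25.3) and the focal adhesion median (-0.171 against -0.0505 to -0.0309).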

How the results depend on the processing

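The differences of 54 genes named by rule gave 1301 values under the alternatives, of which 63 lost and 62 gained the call and 19 changed sign. The sign changes were in Dcxr, Hnrnpl, Rhoj and Pqlc3, whose differences were not called and were at most 0.08 in size; every other difference in this set kept its sign. Dcxr (-0.0164) was at 0.201 under library totals, 0.0027 with TMM within stages, 0.025 with the replicate block and -0.222 to 0.107 without 1 library. Hnrnpl (-0.0478) was at 0.165 under library totals and -0.208 to 0.0693 without 1 library, Rhoj (0.0751) at -0.0424 to 0.301 on leaving out 1 library or SRF-KO OPC replicate 2 with SRF-KO OL replicate 4, and Pqlc3 (0.0747) at -0.0822 to 0.194. The stage effects of genes named for both stages kept their sign (914 values, none reversed). Both sets of genes were named from these same libraries, which the alternatives reuse, so kept signs are not separate support. The 18 genes were all called again under RLE scaling, TMM within stages, DESeq2 and voom, 17 under library totals and without a filter, and 15 with the filter passed in each stage. Counts of calls varied more, and the cause was not tested except that fewer genes or libraries were used where stated. Genes tested numbered 16135 in the main fit, 28598 without a filter and 2820 with OL length at most 1.5 times OPC length. For the difference between stages (18), DESeq2 called 168, voom 323, no filter 88, genes with OL length at most 1.5 times OPC length 3 and leaving out SRF-KO OPC replicate 2 with SRF-KO OL replicate 4 58. Leaving out 1 library gave 4 to 134. For OPCs (31) the counts were 170, 66, 67, 3 and 14 in that order, 20 with the filter passed in each stage, and 3 to 83 without 1 library. For OLs (94) they were 416, 1754, 254, 8 and 635, 600 under library totals (538 higher and 62 lower, against 26 and 68), and 51 to 442 without 1 library. For stage-limited genes (10) they were 99, 148, 61, 2 and 21, and 3 to 63 without 1 library. Shared genes (0) numbered 2 by DESeq2, 1 by voom, 1 without a filter and 0 to 1 without 1 library, Srf in each case and Pqlc3 with DESeq2. Opposite genes (0) numbered 1 by DESeq2, Gm12671, a predicted gene with fitted log2 effects of 21.4 and -24.3.

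Replicate numbers were not used as pairs in the main fit. Correlations of same-numbered deviations were -0.0202 to 0.0158 over 3 OPC pairs and -0.238 to 0.0189 over 4 OL pairs. Differently numbered libraries gave -0.0349 to 0.0231 in OPCs and -0.179 to 0.247 in OLs. With so few libraries, these values do not settle whether libraries of equal number were paired. With the replicate number within stage as a block, 0 differences, 1 gene in OPCs, 38 in OLs and 0 stage-limited genes were called.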
